A study of Rattus norvegicus with 6 samples.

Results

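SF3A and SF3B are protein complexes within the U2 small nuclear ribonucleoprotein (U2 snRNP), the splicing particle that marks the branch site of an intron. Their 10 subunit genes (Sf3a1, Sf3a2 and Sf3a3 for SF3A, and Sf3b1, Sf3b2, Sf3b3, Sf3b4, Sf3b5, Sf3b6 and Phf5a for SF3B) were taken by symbol from the 24360 gene rows. Each of the 10 had 1 row, and all 10 passed the filter on low counts. The 6 RNA samples are of H9c2, an embryonic rat heart line of myoblasts, labelled wild type. The labels give 3 samples (Ctrl) the treatment NC and 3 samples (Rb2) ginsenoside Rb2, a saponin of ginseng. A protocol shared by all 6 gives Rb2 for 48 h, deprivation of glucose and oxygen for 4 to 6 h and their return for 12 h. It does not say whether Ctrl samples were deprived. No label says that replicates came from different cultures; p-values then reflect only how these samples vary, and that variation may be technical. All samples are of 1 line in culture.

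In the U2 snRNP, the RNA component pairs with the branch site and leaves the branch point adenosine unpaired for the first step of splicing. SF3B holds that duplex: Sf3b1 is its large curved scaffold, Phf5a completes the adenosine pocket, and Sf3b6 (p14) lies near the same adenosine. SF3A joins SF3B to the rest of the particle, and SF3B also serves the minor spliceosome. The title of the series names Sf3a2 acetylation at lysine 10, the enzymes p300 and Sirt7, and splicing of Fscn1. The measurements here are of RNA, so they hold nothing on acetylation of the protein.

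Total counts ran from 5193077 to 8793390 per sample, and the members took 6128 to 9921 of them. Ctrl replicate 1 was the deepest library and lay farthest out on the first principal component. Counts came from longer transcripts in Rb2: averaged over counts, transcript length was 1172, 1174 and 1228 bases for the Ctrl libraries against 1244, 1255 and 1252 bases for the Rb2 libraries (exact two-sided permutation p = 0.1; 3 against 3 samples cannot go lower). Calls with an offset for length are given beside the genes they concern. In bulk RNA, fewer cells of a kind and less RNA per cell cannot be told apart. The labels call the cells embryonic cardiomyocytes. Of 6 cardiomyocyte markers 5 had a row: Actc1 was at 0 in all samples, Tnni3 had counts only in Ctrl replicate 1 (0.243 CPM), Myh6 was at 0.971 to 1.27 CPM in Ctrl and 1.39 to 1.84 CPM in Rb2, without overlap, Nkx2-5 lay between 0.349 and 7.73 CPM, and Tnnt2 between 42.1 and 61.4 CPM. The summed level of these markers was 49.4 to 68.3 CPM in Ctrl and 46.6 to 56.3 CPM in Rb2. Skeletal myoblast markers summed to 30.8 to 40.5 CPM in Ctrl and 37.2 to 43.0 CPM in Rb2, and mesenchymal markers to 3346 to 3781 and 3502 to 4056 CPM. Of the latter, Col3a1 was higher in every Rb2 sample (log2 fold change 0.41, edgeR adjusted p = 0.0546). Col1a1 (0.09, edgeR adjusted p = 0.921) and Vim (-0.02, edgeR adjusted p = 0.973) overlapped between groups. Epithelial markers were at 0 in every sample. The part of these markers in the results was not tested.

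Of the 10 subunit genes, Sf3b1 and Sf3b6 were higher in Rb2 and none was lower. The threshold was an adjusted p under 0.05 in edgeR's quasi-likelihood test over 11551 genes, where 2.7% of genes were called, 1.9% higher and 0.805% lower. DESeq2 called the same 2 members, where it called 4.5% (3.44% higher and 1.06% lower) of the 9086 genes it gave an adjusted p. limma-voom called the same 2 members too, where it called 1.53% of the 11551 genes. Sf3b5 was the 1 member below an unadjusted p of 0.05 in the lower direction, where 8.17% of genes were, and neither DESeq2 nor limma-voom called a member lower. The groups did not overlap in 7 members (3 higher, 4 lower in Rb2), against 27.2% of all genes tested. The median log2 fold change of the members was -0.12, with 3 above 0 and 7 below, against -0.02 over all genes tested.

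Sf3b1 (ENSRNOG00000013516) encodes the scaffold of SF3B and is the subunit most often mutated in blood cancers. Its level, in TMM-scaled CPM (each count divided by its library's total and put on a common scale), was 14.7, 11.9 and 15.0 for Ctrl, listed here and below by replicate number, against 24.7, 29.8 and 28.3 for Rb2. Every Rb2 sample lay well above every Ctrl sample. The log2 fold change was 0.99 (SE 0.16), a 1.98-fold rise (edgeR adjusted p = 0.0261, n = 3 each). It rests on 66 to 121 counts per Ctrl library and 139 to 172 per Rb2 library.

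Sf3b6 (ENSRNOG00000046172), the small subunit at the branch point adenosine, had the smallest p of the members. It was at 135, 147 and 160 CPM in Ctrl and at 236, 223 and 226 CPM in Rb2. The Rb2 samples were close together and clear of the Ctrl range. The log2 fold change was 0.63 (SE 0.09), a 1.55-fold rise (edgeR adjusted p = 0.0194, n = 3 each), on 813 to 1327 counts per library. RefSeq places Fkbp1b over part of the same locus, and the counting is not stated to use strand, so reads from the 2 genes may not be told apart.

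Both calls were lost without Ctrl replicate 2 or without any 1 of the Rb2 samples. The edgeR adjusted p was then 0.0674 to 0.188 for Sf3b1 and 0.0776 to 0.165 for Sf3b6. The log2 fold changes stayed at 0.90 to 1.06 and 0.61 to 0.65. Calls over all genes fell in the same fits, from 219 higher and 93 lower to 2 and 13 without Ctrl replicate 2, and to 25 and 14, 0 and 3, and 1 and 10 without Rb2 replicates 1, 2 and 3. Both were called without Ctrl replicate 1 (log2 fold change 1.05 and 0.59). Sf3b1 is one of the longest members at 4958 bases and Sf3b6 one of the shortest at 790 bases. With an offset per library for gene length both were still called, at 0.86 (SE 0.15) and 0.73 (SE 0.12), with edgeR adjusted p = 0.0348 and 0.0275.

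Among the SF3A genes, none passed. Sf3a2 (ENSRNOG00000019349), the zinc finger subunit named in the title, was at 21.2, 22.1 and 25.3 CPM in Ctrl and 20.6, 19.1 and 20.1 CPM in Rb2. The groups did not overlap, but the highest Rb2 and the lowest Ctrl sample were less than 1 CPM apart. Its log2 fold change was -0.20 (SE 0.15, edgeR adjusted p = 0.493), and over 20 alternative settings it ran from -0.30 to -0.08 with no call. RefSeq lists Plekhj1 as overlapping Sf3a2 and names 2 Sf3a2 pseudogenes, so some of its reads may be shared with other loci. The same limit holds for other members. Sf3a1 (with Ccdc157), Sf3b2 (with Gal3st3) and Sf3b3 (with Snord111 and others) also have overlapping entries, and Sf3a1 and Sf3b4 each have a named pseudogene.

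Sf3a3, the third SF3A subunit, was at 25.0, 29.8 and 34.1 CPM in Ctrl and at 42.2, 40.4 and 41.9 CPM in Rb2. All Rb2 samples were above all Ctrl samples, and the Ctrl samples were spread more widely. This gave a log2 fold change of 0.49 (SE 0.15, edgeR adjusted p = 0.104). Without Ctrl replicate 3 it passed, at 0.62 (edgeR adjusted p = 0.0458). Sf3a1, which binds both other SF3A subunits, was at 22.2, 18.8 and 21.1 CPM in Ctrl and at 21.5, 17.7 and 22.1 CPM in Rb2. These ranges overlapped almost fully, with a log2 fold change of -0.02 (SE 0.16, edgeR adjusted p = 0.954) whose sign depended on the scaling.

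Of the other SF3B genes none passed. Sf3b5, a small subunit bound to Sf3b3, was at 319, 294 and 266 CPM in Ctrl and at 248, 247 and 250.2 CPM in Rb2. The Rb2 samples were nearly equal and lay below all Ctrl samples. Sf3b5 thus had a log2 fold change of -0.24 (SE 0.09, unadjusted p = 0.0266, edgeR adjusted p = 0.186). Sf3b3, a large propeller protein that is also found in the SAGA coactivator with Sf3b5, was at 34.9, 34.3 and 36.0 CPM in Ctrl and at 32.7, 29.5 and 29.4 CPM in Rb2. Here too the groups did not overlap, and the log2 fold change was -0.20 (SE 0.13, edgeR adjusted p = 0.416).

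Sf3b2, which binds Sf3b4 and the branch region, was at 312, 221 and 223 CPM in Ctrl and at 209, 218 and 208 CPM in Rb2. Ctrl replicate 1 alone was far above the rest. Its fold change on the log2 scale was -0.25 (SE 0.13, edgeR adjusted p = 0.321) with it and -0.05 without it. Sf3b4, an RNA-binding subunit, showed the same library apart, at 21.96 CPM in Ctrl replicate 1 against 12.1 and 10.48 CPM in the other Ctrl samples. Its Rb2 values of 12.8, 11.6 and 12.9 CPM lay within the Ctrl range. Its log2 fold change of -0.27 (SE 0.27, edgeR adjusted p = 0.613) turned to 0.16 without that library. Phf5a, the zinc finger subunit of the adenosine pocket, was at 298, 329 and 317 CPM in Ctrl and at 328, 303 and 288 CPM in Rb2, with a log2 fold change of -0.04 (SE 0.09, edgeR adjusted p = 0.839).

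**Figure D1:**
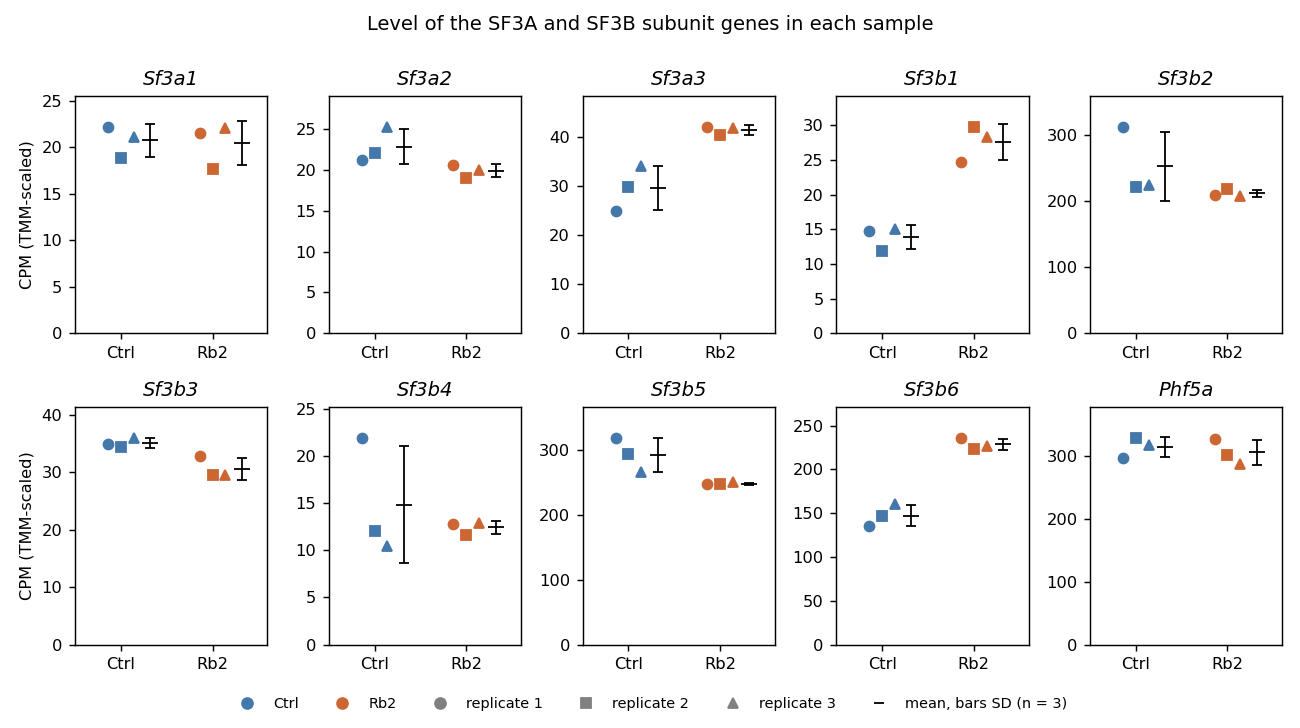
Level of each subunit gene (y axis, TMM-scaled CPM from 0) in the 3 Ctrl and 3 Rb2 samples. Points are samples, shapes are replicate numbers, and black bars are the mean and SD. Sf3b1 is at 11.9 to 15.0 CPM in Ctrl and 24.7 to 29.8 CPM in Rb2, and Ctrl replicate 1 stands apart in Sf3b2 and Sf3b4.

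**Figure D2:**
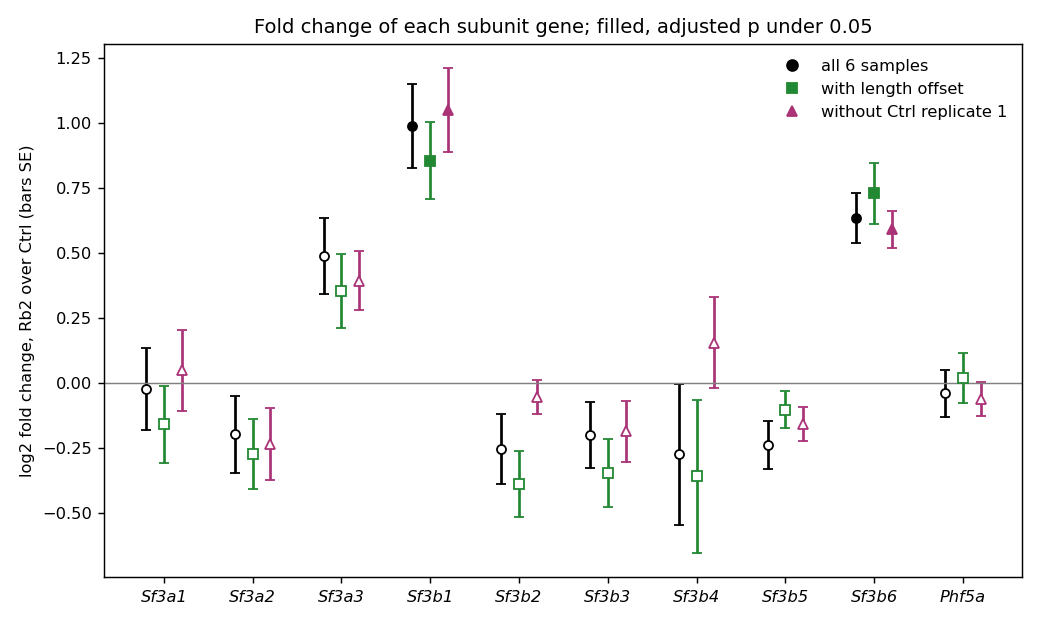
Log2 fold change of Rb2 over Ctrl for each subunit gene (y axis) with its SE, in the fit of all 6 samples, with a length offset, and without Ctrl replicate 1. Filled symbols have an edgeR adjusted p under 0.05. Sf3b1 and Sf3b6 are filled in all 3 fits, and Sf3b4 changes sign from -0.27 to 0.16 without Ctrl replicate 1.

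Per length of the gene model, the RNA levels of the subunits were far from equal. The order of the mean level over the 6 samples, in CPM per kilobase, was Sf3b5 (380), Phf5a (335), Sf3b6 (238), Sf3b2 (68.8), Sf3a2 (11.6), Sf3a3 (10.2), Sf3b4 (7.83), Sf3b3 (6.27), Sf3b1 (4.19) and Sf3a1 (4.10). The 6 samples of Phf5a and Sf3b6, of Sf3b6 and Sf3b2, and of Sf3b2 and Sf3a2 did not overlap, while every other neighbouring pair in that order did. By group the order was not the same: Sf3a1 averaged 4.13 and Sf3b1 2.80 in Ctrl, against 4.07 and 5.57 in Rb2, and Sf3a2 averaged 12.4 and Sf3a3 8.53 in Ctrl, against 10.8 and 11.9 in Rb2. The Sf3a3 model is 3473 bases, while 82.5% to 94.4% of its counts were on a transcript of 1739 bases. Without length scaling, Sf3a3 was above Sf3a2 in both groups, at 29.6 against 22.9 CPM in Ctrl and 41.5 against 19.9 in Rb2. Sf3a1 and Sf3b1 averaged 20.7 and 13.9 CPM in Ctrl and 20.4 and 27.6 in Rb2, so their order still differed. The 3 subunits at the top are also the 3 shortest genes. Whether reads were long or short is unsettled, and with long reads a count would need no length scaling, so the size of these gaps depends on that.

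The 10 genes together gave 1056 ± 24.9 CPM per kilobase over Ctrl and 1077 ± 27.9 over Rb2 (SD, n = 3 each; exact two-sided permutation p = 0.5). The SF3A genes summed to 25.0 ± 2.40 CPM per kilobase in Ctrl and 26.8 ± 1.16 in Rb2 (SD, n = 3 each; exact permutation p = 0.4). The totals overlapped between groups. Within each library, shares of this sum do not depend on the scaling between libraries. The share of Sf3b6 was 15.9%, 17.5% and 19.7% in Ctrl and 27.0%, 26.6% and 27.1% in Rb2. That of Sf3b5 was 41.6%, 38.9% and 36.3% in Ctrl and 31.4%, 32.6% and 33.3% in Rb2. So Sf3b6 took 9.19 percentage points more and Sf3b5 6.55 points less of the sum in Rb2, and neither pair of groups overlapped (p = 0.1 by an exact two-sided permutation test, its minimum, and 0.143 after adjustment over the 10 shares). Sf3b1 took 0.265% ± 0.035 of the sum over Ctrl and 0.519% ± 0.061 over Rb2 (SD, n = 3 each; exact permutation p = 0.1). Without length scaling, as shares of summed CPM, the differences were 7.01 points for Sf3b6, -3.93 points for Sf3b5 and 1.20 points for Sf3b1, Sf3a2 overlapped, and 6 members did not overlap. With length scaling, 7 members had shares that did not overlap between groups. Shares of 1 sum are tied to each other, so these are not 7 separate results. No such count was made over all genes to set beside it. With Sf3b6 left out of the sum, 2 members had shares that did not overlap (Sf3a3 and Sf3b1, both higher in Rb2). Sf3b5 then overlapped.

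**Figure D3:**
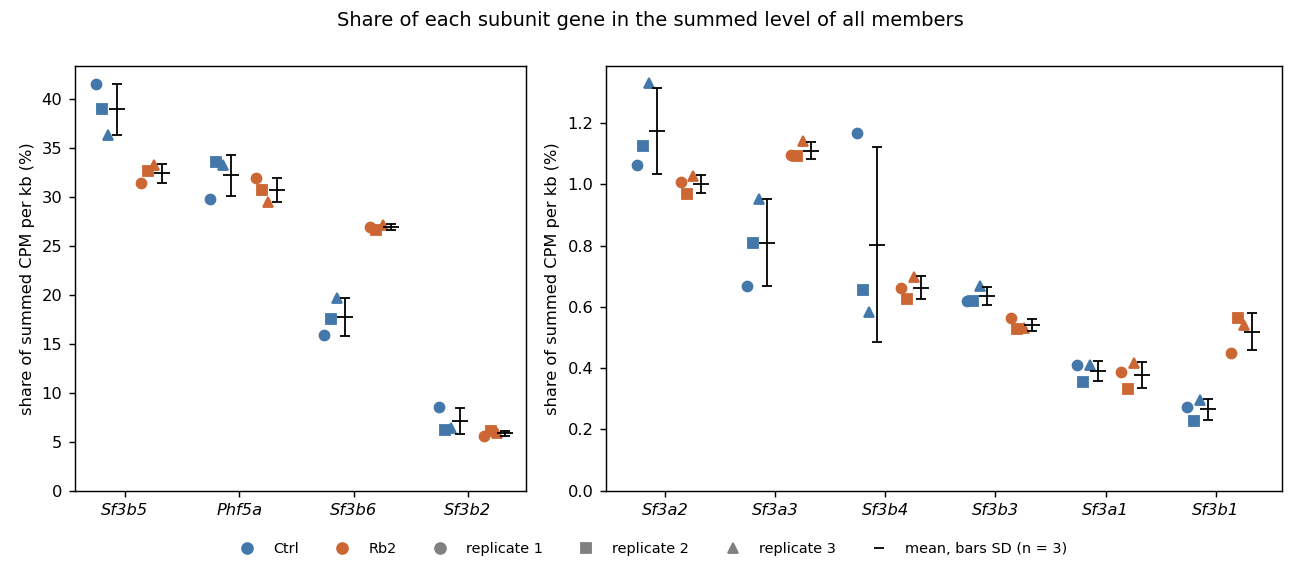
Share of each subunit gene in the summed CPM per kilobase of the 10 genes (y axis, percent), for the 4 genes with large shares (left) and the other 6 (right, own axis from 0). Points are samples, shapes are replicate numbers, and black bars are the mean and SD. Sf3b6 goes from 15.9% to 19.7% in Ctrl to 26.6% to 27.1% in Rb2.

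The ratio of 2 subunits within a library restates the same values pair by pair, so it is no separate evidence. The log2 ratio of Sf3b1 to Sf3b3, its large partner of like length, was -1.25, -1.53 and -1.26 in Ctrl and -0.40, 0.02 and -0.06 in Rb2 (exact two-sided permutation p = 0.1). For Sf3a2 over Sf3b1 it was 0.53, 0.89 and 0.75 in Ctrl and -0.26, -0.64 and -0.50 in Rb2, so the order of these 2 genes in counts was opposite in the groups (exact two-sided permutation p = 0.1). Of 45 such pairs 22 did not overlap between groups. These were all 21 pairs that set Sf3a3, Sf3b1 or Sf3b6 against one of the other 7 genes, and 1 of the other 24 pairs (Sf3b3 with Phf5a). Those 3 genes were picked out for their higher Rb2 values, so this count is a description, and no pair could go below p = 0.1 in the exact test.

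Of 26 transcripts of the members, 10 are annotated and 16 are new models, and in each of the 10 genes they added up to its gene-level count. The filter on low counts passed 15 of them, and the other 11 reached at most 21 counts in any sample. None of the 15 was called by edgeR, as none was among all 16679 transcripts tested (0%). Unadjusted, 4 of the 15 had a p under 0.05 (13.8% of all transcripts tested). limma-voom called none. DESeq2 called 2, where it called 2.55% of the 12134 transcripts it gave an adjusted p. Those 2 were the transcripts that carry the Sf3b1 and Sf3b6 counts.

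Nearly all Sf3b6 counts, between 99.7% and 100% in each sample, were on a new model of 782 bases (ONT.15265.1). Its level was 137, 148 and 160.3 CPM in the Ctrl samples and 236, 224 and 228 CPM in the Rb2 samples, which did not overlap. The log2 fold change was 0.63 (SE 0.09), with an edgeR adjusted p of 0.0885 over all transcripts. The annotated Sf3b1 transcript, of 4954 bases, had 15.0, 12.0 and 15.1 CPM in the Ctrl samples and 21.6, 29.4 and 27.8 CPM in the Rb2 samples, again without overlap. The log2 fold change was 0.90 (SE 0.18), with an edgeR adjusted p of 0.162. A new Sf3b1 model of 4257 bases (ONT.18477.3), below the filter, had counts of 0, 0 and 0 in Ctrl and 18, 3 and 4 in Rb2. A count of 0 allows shares of up to 2.48%, 4.55% and 3.49% of the Sf3b1 counts in Ctrl replicates 1 to 3. The Rb2 shares were 12.9%, 1.74% and 2.597%, so only Rb2 replicate 1 exceeded all 3 limits, which cover counting error only. A new Sf3a3 model of 1144 bases (ONT.13725.5) was also below the filter, at 6 to 18 counts per library. Its share of the Sf3a3 counts was 7.28%, 4.85% and 9.23% in Ctrl and 3.38%, 2.58% and 4.82% in Rb2. These groups did not overlap but lay close.

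The annotated Sf3a3 transcript, of 1739 bases, was at 21.0, 27.6 and 29.8 CPM in the Ctrl samples and at 38.1, 38.3 and 38.7 CPM in the Rb2 samples, which did not overlap (log2 fold change 0.56, SE 0.16, edgeR adjusted p = 0.233). The single Sf3b5 transcript was lower in every Rb2 sample than in every Ctrl sample (log2 fold change -0.25, SE 0.09, edgeR adjusted p = 0.315). These and the transcripts of Sf3b1 and Sf3b6 were the 4 with an unadjusted p under 0.05. The single Sf3a1 transcript had a log2 fold change of -0.03 (edgeR adjusted p = 0.955), and the annotated Sf3a2 transcript one of -0.19 (edgeR adjusted p = 0.627), with overlapping samples in both, although the Sf3a2 gene did not overlap.

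Transcript usage, the share of each transcript within its gene, could be tested in 5 members with at least 2 transcripts past the filter. None was called by diffSpliceDGE of edgeR (Simes adjusted p of 1.00 in each), none had an unadjusted p under 0.05, and the gene-level F test called none. Over all 3361 genes tested Simes called 0.417% and the F test 0.446%, and 3.36% had an unadjusted p under 0.05. Sf3a2 kept most of its counts on its annotated transcript, with shares of 84.0%, 94.3% and 90.3% in Ctrl and 91.4%, 88.2% and 92.7% in Rb2. The rest was on 1 new model of 1804 bases (ONT.16329.2), and the ranges overlapped (exact two-sided permutation p = 0.8, adjusted 1 over 10 shares).

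The widest spread was between Ctrl samples. The annotated Sf3b3 transcript held 80.9%, 54.2% and 32.0% of the Sf3b3 counts in Ctrl and 65.8%, 53.5% and 43.8% in Rb2. Its partner, a new model of 4383 bases (ONT.8785.1), held 16.7%, 38.9% and 62.6% in Ctrl and 31.5%, 43.5% and 53.8% in Rb2. The summed Sf3b3 level in Ctrl was steady (34.3 to 36.0 CPM) while its division between these models was not. In Sf3b4, a short new model of 419 bases (ONT.9688.9) held 63.5% of the counts in Ctrl replicate 1 and 20% to 35.8% in the other 5 samples. The annotated Sf3b4 transcript, of 1533 bases, was even across samples, averaging 8.12 ± 0.30 CPM over Ctrl and 8.61 ± 0.63 CPM over Rb2 (SD, n = 3 per group), so the high gene-level value of Ctrl replicate 1 was on the short model. By fold change, the annotated Sf3b4 transcript was at 0.08 and the short model at -0.85 on the log2 scale (edgeR adjusted p = 0.871 and 0.614), on either side of 0. In Phf5a, the annotated transcript of 873 bases had a log2 fold change of -0.12 and a new model of 883 bases (ONT.16751.5) one of 0.09 (edgeR adjusted p = 0.560 and 0.884). That new model held 25.5% to 37.1% of the Phf5a counts in Ctrl and 32.0% to 40.8% in Rb2. The annotated Sf3b2 transcript held 88.3% to 93.9% of the Sf3b2 counts in all samples (log2 fold change -0.25, edgeR adjusted p = 0.457). A new Sf3b2 model of 2819 bases (ONT.1997.5) had 286 counts in Ctrl replicate 1 and 69 to 92 in the other 5 samples (log2 fold change -0.52, edgeR adjusted p = 0.642).

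**Figure D4:**
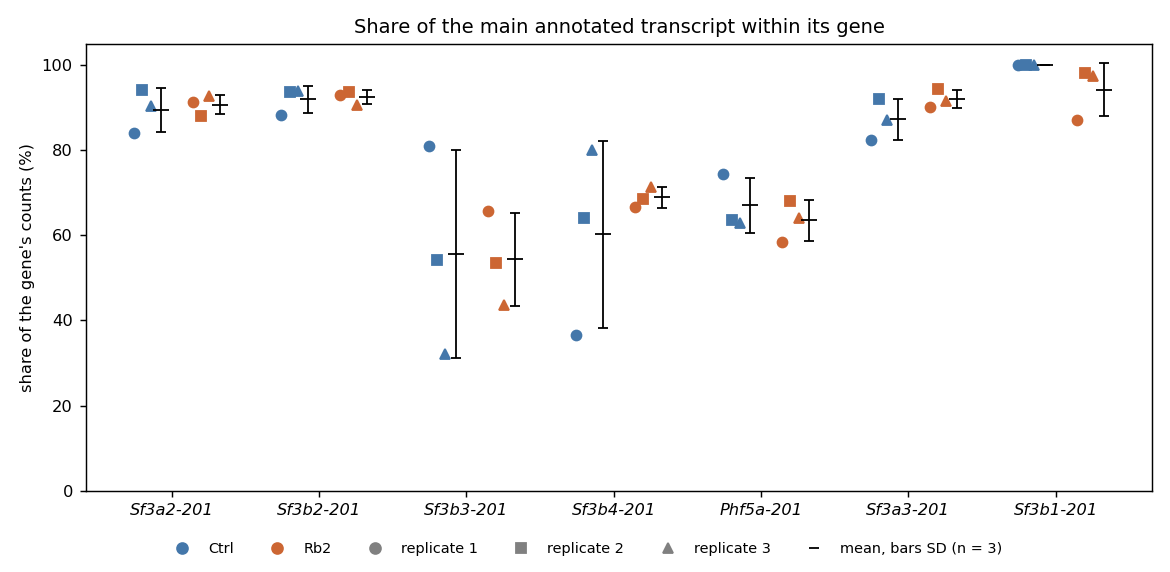
Share of the main annotated transcript in the counts of its gene (y axis, percent from 0) for 7 members with more than 1 transcript. Points are samples, shapes are replicate numbers, and black bars are the mean and SD, which for Sf3b1 reaches past the possible range. The Sf3b3 transcript spans 32.0% to 80.9% within Ctrl, and no share of the 5 genes tested for usage separates the groups.

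Promoter sequences (250 bases before to 50 after the start) were taken from RefSeq (GRCr8), where 8 of the 10 members matched by symbol. The 3 below are shown because Sf3b6 and Sf3b1 rose and Sf3a2 did not. Capitals mark matches on either strand to CCGGAAG, the core bound by ETS factors and common in promoters of housekeeping genes, and to ACGTG, a form of the core of a hypoxia response element. Other forms of that core were not searched, so a window without ACGTG may still hold them. No match of one motif overlaps a match of the other in these windows.
Sf3b6, chr6:33545245-33545544, plus strand: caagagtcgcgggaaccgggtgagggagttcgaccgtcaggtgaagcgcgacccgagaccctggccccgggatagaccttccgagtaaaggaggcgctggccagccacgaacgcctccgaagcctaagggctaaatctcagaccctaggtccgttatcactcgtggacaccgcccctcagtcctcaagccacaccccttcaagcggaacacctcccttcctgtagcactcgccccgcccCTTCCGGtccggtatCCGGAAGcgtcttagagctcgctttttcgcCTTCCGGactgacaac
Sf3b1, chr9:64026670-64026969, minus strand: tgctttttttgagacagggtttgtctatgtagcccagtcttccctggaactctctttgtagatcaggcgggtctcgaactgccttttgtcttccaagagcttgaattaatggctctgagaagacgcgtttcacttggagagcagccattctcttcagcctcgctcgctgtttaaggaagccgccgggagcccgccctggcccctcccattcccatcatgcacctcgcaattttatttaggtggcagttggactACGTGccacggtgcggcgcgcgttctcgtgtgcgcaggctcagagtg
Sf3a2, chr7:9566156-9566455, minus strand: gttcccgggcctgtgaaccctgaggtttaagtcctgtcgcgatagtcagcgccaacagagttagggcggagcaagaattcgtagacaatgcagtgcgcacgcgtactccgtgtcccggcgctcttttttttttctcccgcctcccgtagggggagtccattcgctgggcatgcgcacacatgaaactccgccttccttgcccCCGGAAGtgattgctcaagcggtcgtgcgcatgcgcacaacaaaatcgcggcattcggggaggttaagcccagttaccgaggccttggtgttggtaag

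The Sf3b6 window holds the ETS core in 3 places, starting 11 bases before and 5 and 35 bases after the start, and the Sf3a2 window holds it once, 48 bases before. The Sf3b1 window does not hold it. That window holds ACGTG once, 4 bases after the start. Over the 8 member windows the ETS core was in 4 (Sf3a1, Sf3a2, Sf3a3 and Sf3b6) and ACGTG in 3 (Sf3b1, Sf3b4 and Sf3b5). Of 33469 RefSeq windows of the same length, 8.75% held the ETS core and 19.3% ACGTG. These windows were not matched to the members in base content. The member windows with the ETS core were 56.7% to 64.3% G or C, the others 47.3% to 54.7%, and the mean over all windows was 52.7%. The TATA box, searched as TATAAA, was in none of the 8 and in 14.2% of all windows. A match is a description of the letters only.

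Among genes of the partner complexes 2 were called, each in its own list, where 2.7% of all genes were called. Of 9 U2 snRNP core genes (the Sm ring and the U2-specific proteins) 7 were tested, and 1 rose, none fell and 6 did not pass. The riser was Snrpb2, which encodes the U2 B″ protein, at 35.9, 28.7 and 35.3 CPM in Ctrl and 55.7, 60.5 and 46.5 CPM in Rb2 (log2 fold change 0.70, SE 0.15, edgeR adjusted p = 0.0456). Ctrl and Rb2 values of Snrpb2 did not overlap. Of 14 partners at the branch site and 3′ splice site, all tested, 1 rose, none fell and 13 did not pass. Dhx15, the helicase that takes apart stalled spliceosomes, was at 3.64, 4.88 and 8.04 CPM in Ctrl and 14.6, 17.7 and 16.2 CPM in Rb2 (log2 fold change 1.57, SE 0.28, edgeR adjusted p = 0.0302). Every Rb2 sample was well above every Ctrl sample. As with Sf3b1 and Sf3b6, both calls were lost without Ctrl replicate 2 or any 1 of the Rb2 samples, with an edgeR adjusted p of up to 0.226 for Snrpb2 and 0.188 for Dhx15. Their log2 fold changes in these fits, which called few genes of any kind, were 0.61 to 0.80 and 1.497 to 1.635. limma-voom did not call Snrpb2 (adjusted p = 0.0545). Snrpb2 and Dhx15 were still called with the length offset, at 0.72 (SE 0.14) and 1.44 (SE 0.26), with edgeR adjusted p = 0.0469 and 0.0389. In both lists no gene fell by DESeq2 or limma-voom either, and at an unadjusted p under 0.05, where 20% of all genes were, the U2 core had 2 higher and 1 lower, and the branch site list 5 higher and none lower. The lower gene was Snrpd2 of the Sm ring (log2 fold change -0.37, edgeR adjusted p = 0.0921). The higher genes beside Snrpb2 and Dhx15 were Snrpd1, also of the Sm ring (0.20), the helicase genes Ddx46 (0.43) and Ddx42 (0.48), Htatsf1 (0.71) and U2surp (0.47), with edgeR adjusted p from 0.0810 to 0.248.

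Among 8 U11/U12 proteins, which work with SF3B in the minor spliceosome, none was called by edgeR or limma-voom, while 3 were higher and 1 lower at an unadjusted p under 0.05, against the same 20% of all genes. Zcrb1 had the smallest p, at 73.7, 86.2 and 107 CPM in Ctrl and 124, 139 and 138 CPM in Rb2 (log2 fold change 0.59, SE 0.14, edgeR adjusted p = 0.0576), and DESeq2 called it (adjusted p = 0.0202). Without Ctrl replicate 1 or 3, edgeR called Zcrb1 too (adjusted p = 0.0132 and 0.0175). Of 14 SAGA genes tested, which share that complex with Sf3b3 and Sf3b5, none was called by edgeR, DESeq2 or limma-voom, with 3 higher and none lower at an unadjusted p under 0.05, a share near the 20% of all genes. Supt20h, a SAGA core gene, had the smallest p (log2 fold change 0.83, SE 0.33, edgeR adjusted p = 0.198). The median log2 fold changes were -0.08 for the U2 core, 0.02 for the branch site and 3′ splice site list, 0.21 for U11/U12 and 0.09 for SAGA, against -0.02 over all genes. The enzyme Sirt7 (log2 fold change -0.12, edgeR adjusted p = 0.827) and Fscn1 (0.74, edgeR adjusted p = 0.214) did not pass. Ep300, the gene of p300, had no gene row under that symbol and so could not be tested.

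**Figure D5:**
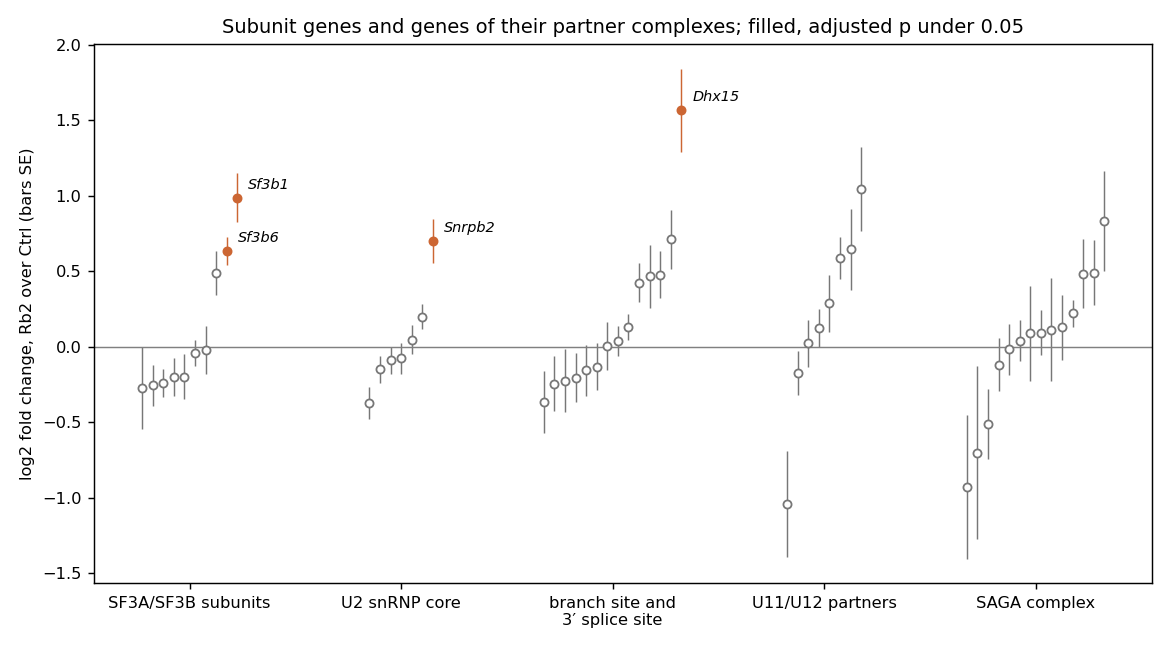
Log2 fold change of Rb2 over Ctrl with its SE (y axis) for the subunit genes and the tested genes of 4 partner lists, in order of size within each list. Filled points have an edgeR adjusted p under 0.05. The 4 filled points are Sf3b1 (0.99), Sf3b6 (0.63), Snrpb2 (0.70) and Dhx15 (1.57).

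The genes whose log2 CPM over the 6 samples was most like a member's were looked up among 8419 known genes with a symbol. For Sf3b1 they were Dhx40, which encodes a helicase of the DEAH family (Pearson r = 0.998), Camta1 (0.996) and Hmmr, which encodes a hyaluronan receptor and spindle protein (0.996). For Sf3a2 they were Dnajc5, a synaptic vesicle co-chaperone gene (0.984), Rnd1 (0.982) and Gys1, which encodes muscle glycogen synthase (0.975). These are the highest of 8419 values for each member, over 6 points, and all genes share the same libraries, so they are descriptions.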

How the data were processed

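Per the file headers, the authors deposited whole-number counts per gene and per transcript, with model lengths in bases, and tables of CPM, which equal the deposited count over the column total, with no length scaling. The submitters' processing notes list HISAT2, DESeq2 and mm10 (a mouse build) without saying what each was used for. For the counter, the annotation version and the builder of the new models, nothing is given in the sources used here. The known rows carry rat identifiers. Each table has 18 further columns of other samples, not used here.

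The main test was edgeR's quasi-likelihood test (version 4.0.16, R 4.3.3), with TMM scaling, genes kept by filterByExpr, robust dispersions and group as the only term, over the whole gene or transcript table, with Benjamini-Hochberg adjustment and a threshold of 0.05. CPM in the text is scaled by TMM. The SE is the fold change over the square root of F. Usage was tested with diffSpliceDGE. Shares and ratios were compared by exact permutation tests over samples. Alternatives used DESeq2 1.42.0 and limma 3.58.1, among others. The length offset was a loess curve (span 0.5) per library, fitted to log-ratios against log2 length. The gene, transcript and usage tests were tested on simulated data. Libraries held 5193077 to 8793390 counts, so 3 counts were 0.341 to 0.578 CPM by library total, without TMM scaling.

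The text names all 10 members, each transcript past the filter (others by number and range), the called genes of each partner list or else the gene with the smallest p, and the 3 genes most like Sf3a2 and Sf3b1. Other genes and models were named after their values were seen. The members and lists were chosen with earlier results of these data known. No 2 libraries of a group agreed within sampling noise (chi-square per degree of freedom of at least 1.84).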

Additional observations from a re-analysis of the deposited data

How the results depend on the processing

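Sf3b1 and Sf3b6 kept their direction in all 20 alternatives and their call in 14. The 2 member calls became 0 with the replicate number as a block, with and without the length offset; leaving out 1 sample gave 0 to 3 calls, in fits that called from 0 higher and 3 lower (without Rb2 replicate 2) to 605 higher and 291 lower (without Ctrl replicate 1) of all genes. With the block alone the edgeR adjusted p was 0.0709 for Sf3b1 and 0.0551 for Sf3b6. The labels tie nothing to that number. Deviations of same-numbered samples from their group means had correlations of -0.067, -0.061 and -0.007 for replicates 1, 2 and 3. So few samples cannot settle whether the number marks a pairing. The block left 12 genes higher and 21 lower of all tested. With the length offset and no Ctrl replicate 1, an alternative chosen after seeing the data, 1 member was called lower, Sf3b3 (-0.44, edgeR adjusted p = 0.0319). The cause of these changes was not tested.

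With library size only, and with limma on the deposited CPM plus 1 or plus 0.1, Sf3a1 reversed to 0.090, 0.086 and 0.089 and Phf5a to 0.072, 0.072 and 0.072. The length offset reversed Phf5a to 0.019, or 0.021 with the block. With that offset and no Ctrl replicate 1, Sf3b4 reversed to 0.10. Leaving out 1 sample gave -0.080 to 0.074 for Sf3a1, -0.46 to 0.16 for Sf3b4, -0.092 to 0.0038 for Phf5a and -0.30 to 0.062 for Sirt7. Over all genes, the median log2 fold change was -0.02, and 0.10 with library size only, which gave 463 genes higher and 80 lower against 219 and 93; upper-quartile factors gave 135 and 92, and the length offset 135 and 114.

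Of the partner lists, 2 genes were called higher; this was 1 with upper-quartile factors, limma-voom and known genes only, 5 on the deposited CPM plus 1, 6 with library size only, 0 with the block, and 4 (with 2 lower) with the length offset and no Ctrl replicate 1. Leaving out 1 sample gave 0 to 7 higher and 0 to 2 lower. Dhx15 kept its call in 13 of 19 alternatives and Snrpb2 in 10. DESeq2 called 2 member transcripts where edgeR called 0. Without Sf3b6 in the sum, 2 members had shares that did not overlap, against 7.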
